A study of Mus musculus with 12 samples.

Results

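Bone morphogenetic proteins (BMPs) are secreted ligands of the TGF-beta superfamily. They bind paired type I and type II receptors, which phosphorylate SMAD proteins that enter the nucleus and change transcription. In the liver, BMP2 and BMP6 from the sinusoidal endothelium act on hepatocytes and, through the co-receptor hemojuvelin, keep up transcription of hepcidin, the hormone that blocks iron export into the blood. Mice that lack either ligand in their endothelium become iron loaded. BMP4 is a close relative of BMP2, and BMPER (BMP-binding endothelial regulator) is an extracellular protein that binds BMPs and tunes their activity.

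The expression of 4 genes, Bmp2, Bmp4, Bmp6 and Bmper, is described here in liver sinusoidal endothelial cells. They were found by their symbols in the annotation of the array, which gave 1 probe set each, 4 of 25428 in all. The NICD-OE-HEC group came from mice with 1 transgenic and 1 wild-type allele of Clec4g-Cre, whose Cre acts in hepatic endothelium, together with a Rosa26 allele that holds N1ICD (the intracellular domain of Notch1, the part of the receptor that activates transcription), an internal ribosome entry site and GFP. The Control group is named only as Ctrl, and the sources used here do not give its full genotype, nor the age and sex of any animal. Each group had 6 samples, each sample pooled livers of 3 mice, and cells were selected with beads against CD146 after perfusion with collagenase and a density gradient. Each pool was measured on its own Affymetrix array, and the values are log2 expression values made by RMA. The comparison asks what sustained Notch activity does to gene expression in these cells.

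All 12 listed sinusoidal endothelial markers lay above 3.67, the median of all values. So did all 12 stellate cell and fibroblast, all 7 hepatocyte and all 8 Kupffer cell markers measured. This level thus does not tell these cell types apart. The summed linear level of the sinusoidal markers ran from 22184 to 26411 on NICD-OE-HEC arrays and from 27246 to 33827 on Control arrays. No member was listed at 0, which holds for every list here, as the lowest of all values was 0.82. Hey1, a transcriptional target of Notch, was 2.70 higher on the log2 scale in NICD-OE-HEC (limma, adjusted p = 4.15e-08), while Notch1 itself was not called (0.19, adjusted p = 0.486), and the sources used here do not say which part of Notch1 its probe set covers. NICD-OE-HEC 4 and Control 2 stood apart from the other arrays on the second principal component (-30.3 and -48.5, the other arrays between -8.51 and 22.3), so results for the 4 genes are also given without both.

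The start regions of 3 of the 4 genes are shown: Bmp6, which was lower, Bmper, which was higher, and Bmp4, which had no call. RefSeq's table for GRCm38.p6 held promoters of these 3 genes but none of Bmp2, the gene with the larger drop. Each is read 5′ to 3′ on the gene's strand, from 250 bases before the annotated start to 50 after it, with capitals on matches to TGGGAA (RBPJ, the DNA-binding partner of the Notch intracellular domain), GATAA (GATA factors), TGANNNNGC (NRF2) or CACGTG (the E-box bound by HES and HEY repressors), searched on both strands.
Bmp6, chr13:38345466-38345765, plus strand: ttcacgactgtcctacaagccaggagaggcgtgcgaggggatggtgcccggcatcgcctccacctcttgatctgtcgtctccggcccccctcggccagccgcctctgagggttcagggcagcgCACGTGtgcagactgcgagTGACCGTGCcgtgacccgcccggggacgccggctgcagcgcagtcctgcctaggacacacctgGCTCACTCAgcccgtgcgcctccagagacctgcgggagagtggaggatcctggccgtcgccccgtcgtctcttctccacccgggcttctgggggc
Bmp4, chr14:46390620-46390919, minus strand: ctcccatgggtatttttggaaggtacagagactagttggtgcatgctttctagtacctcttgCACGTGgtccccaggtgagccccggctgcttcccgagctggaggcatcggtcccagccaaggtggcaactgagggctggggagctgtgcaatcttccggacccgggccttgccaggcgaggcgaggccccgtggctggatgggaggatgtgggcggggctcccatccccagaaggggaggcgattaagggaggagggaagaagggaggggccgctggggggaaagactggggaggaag
Bmper, chr9:23222826-23223125, plus strand: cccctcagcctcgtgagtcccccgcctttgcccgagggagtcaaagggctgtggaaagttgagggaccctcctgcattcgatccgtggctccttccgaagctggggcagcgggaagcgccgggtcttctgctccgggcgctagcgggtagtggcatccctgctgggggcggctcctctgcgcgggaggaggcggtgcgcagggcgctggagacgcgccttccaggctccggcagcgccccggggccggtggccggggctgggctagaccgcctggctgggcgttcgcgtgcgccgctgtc

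The Bmp6 window held CACGTG once, 127 bases before the start, and TGANNNNGC on the plus strand 108 bases and on the minus strand 45 bases before it, with no overlap between these matches. The Bmp4 window held CACGTG once, 188 bases before its start. In the Bmper window no match to any of the 4 motifs was found, and TGGGAA and GATAA were found in none of the 3. Of 32851 promoters of this length in the table, 25.6% held TGGGAA, 25.4% GATAA, 41.3% TGANNNNGC and 7.15% CACGTG.

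Bmp2 and Bmp6, the endothelial ligands of the hepcidin pathway, were both lower in NICD-OE-HEC cells, Bmper was higher, and Bmp4 did not differ beyond its spread. Bmp2 was reduced 2.71-fold and Bmp6 1.96-fold, and for both genes every NICD-OE-HEC array lay below every Control array. By limma over all probe sets, 2 of the 4 genes fell and 1 rose, against 5.59% of all probe sets lower and 4.89% higher at an adjusted p under 0.05. In bulk RNA such as this, fewer cells that express a gene and less RNA of it per cell cannot be told apart. On the same arrays 8 of the 12 sinusoidal endothelial markers fell and 2 rose, with a median difference of -0.57. The risers were Lyve1 (0.83) and Pecam1 (0.33). Cdh5 and Tie1 had no call (0.006 and 0.003), while the largest falls were in Stab2 (-1.32) and Clec4g (-0.81). The part of these markers in the differences of the 4 genes was not tested.

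Bmp2 had log2 values from 9.29 to 9.64 with a median of 9.41 on NICD-OE-HEC arrays, against 10.78 to 10.96 with a median of 10.87 on Control arrays. The groups were separated by 1.14, several times the spread within either, and no array of one group came near the other. The mean was 9.44 ± 0.15 in NICD-OE-HEC and 10.88 ± 0.07 in Control (SD, n = 6 each), a log2 difference of -1.44 (SE 0.09, 95% interval -1.62 to -1.26, limma adjusted p = 3.43e-08). On the linear scale this is 2.71-fold lower, with an interval of 2.39 to 3.08. Ranked by signed difference, Bmp2 was number 65 from the bottom of the 25428 probe sets. Its values were tight among Control pools, where 2.28% of probe sets had a smaller SD, and less so among NICD-OE-HEC pools, where 23.9% had.

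Bmp6, the ligand whose hepatic expression follows iron stores, ran from 8.27 to 8.83 with a median of 8.58 on NICD-OE-HEC arrays, against 9.32 to 9.78 with a median of 9.53 on Control arrays. These ranges did not overlap, with a gap of 0.49 between NICD-OE-HEC 6 and Control 2, the arrays nearest to each other. Its mean was 8.56 ± 0.23 in NICD-OE-HEC and 9.53 ± 0.16 in Control (SD, n = 6 each). The log2 difference was -0.97 (SE 0.12, 95% interval -1.22 to -0.73, limma adjusted p = 3.85e-05), or 1.96-fold lower with an interval of 1.65 to 2.32. The groups were apart for 6.68% of all probe sets, and for 2 of these 4 genes.

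Bmp4, which specifies mesoderm in the embryo and is made by several mesenchymal and endothelial cells, was scattered in both groups. It ran from 5.16 to 6.51 with a median of 6.23 on NICD-OE-HEC arrays, against 5.56 to 6.89 with a median of 6.13 on Control arrays. The ranges overlapped over most of their length, with NICD-OE-HEC 4 lowest and Control 5 highest. The log2 difference was -0.20 (SE 0.24, limma adjusted p = 0.728), and its 95% interval of -0.70 to 0.31 leaves room for a moderate change either way. In NICD-OE-HEC 96.0% of probe sets and in Control 94.2% had a smaller SD than Bmp4. Among Control arrays, Control 5 had the highest mean of the 12 stellate cell and fibroblast markers (5.60, the other Control arrays between 4.47 and 5.13). NICD-OE-HEC 4, lowest in Bmp4, had a mean of 5.58 for these markers, within its group's range of 5.17 to 5.64. The part of these cells in the spread of Bmp4 was not tested.

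Bmper was higher in NICD-OE-HEC. It ran from 4.88 to 5.41 with a median of 5.26 on NICD-OE-HEC arrays, against 3.94 to 4.89 with a median of 4.72 on Control arrays. The groups touched at NICD-OE-HEC 6 and Control 6, and Control 2 lay well below the other Control arrays, whose lowest value was 4.61. The mean was 5.22 ± 0.20 in NICD-OE-HEC and 4.62 ± 0.35 in Control (SD, n = 6 each), a log2 difference of 0.60 (SE 0.15, 95% interval 0.28 to 0.92, limma adjusted p = 0.0163), or 1.52-fold higher with an interval of 1.22 to 1.90. Without NICD-OE-HEC 4 and Control 2 the difference was 0.46 for Bmper, -1.43 for Bmp2, -0.96 for Bmp6 and -0.15 for Bmp4, and none changed its call.

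**Figure D1:**
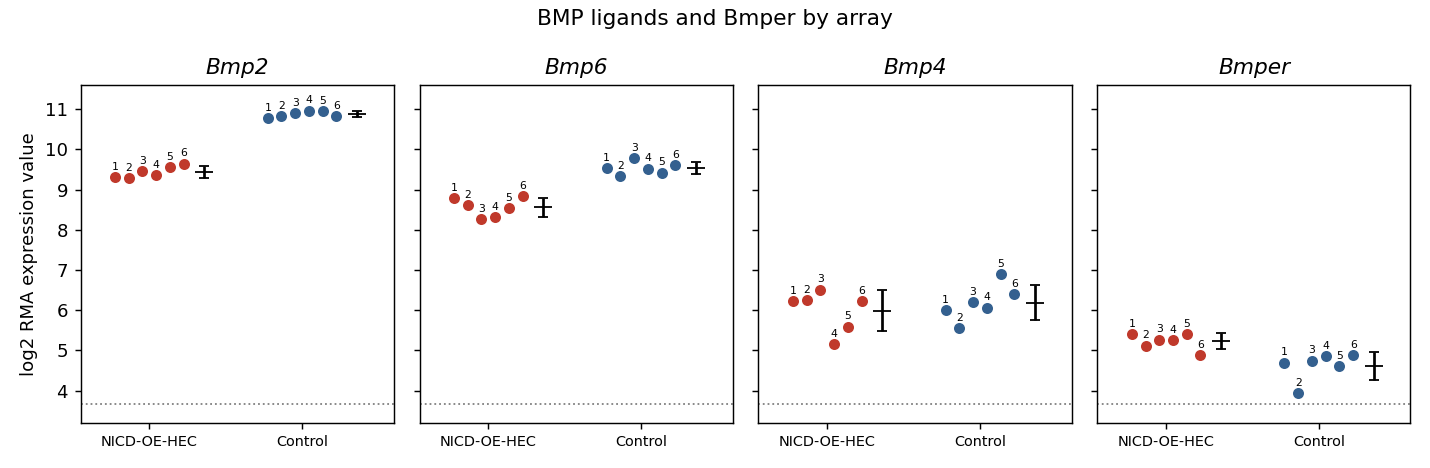
Log2 RMA values of Bmp2, Bmp6, Bmp4 and Bmper on each array, numbered by replicate, with NICD-OE-HEC in red on the left and Control in blue on the right of each panel; black bars give the mean ± SD of 6 arrays and the dotted line the median of all values (3.67). Bmp2 and Bmp6 are lower on every NICD-OE-HEC array than on any Control array, Bmp4 overlaps, and Bmper is higher apart from NICD-OE-HEC 6, which touches Control 6.

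The 4 genes also differed from each other in how much their log2 values changed. For each pair, the difference between the 2 genes within an array was compared between the groups with an exact permutation test, two-sided, that took every assignment of the 12 arrays to 6 and 6, adjusted over 6 pairs. Bmp2 minus Bmp6 was 0.87 ± 0.25 in NICD-OE-HEC and 1.34 ± 0.17 in Control (SD, n = 6 each), so Bmp2 fell further than Bmp6 by 0.47 (SE 0.12, exact permutation p = 0.004329, adjusted p = 0.006494). Bmp2 minus Bmp4 was lower in NICD-OE-HEC by 1.25 (SE 0.27, exact permutation adjusted p = 0.006494), and Bmp4 minus Bmp6 was higher by 0.78 (SE 0.27, exact permutation adjusted p = 0.02165). The log2 values of the close relatives Bmp2 and Bmp4 thus changed unequally. Whether the probe sets of the 4 genes respond alike to a change in RNA was not tested. Against Bmper, Bmp2 changed by -2.04 and Bmp6 by -1.57 (exact permutation p = 0.002165 for each, the smallest this design allows, adjusted p = 0.006494). Bmp4 minus Bmper changed by -0.80 (exact permutation adjusted p = 0.01299).

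Other ligands of the family were mostly dim. Of 11 other BMP and GDF ligands, 2 fell and 0 rose in the limma fit (3 and 0 at an unadjusted p under 0.05), or 18.2% called against 10.5% of all probe sets, with a median difference of -0.09 against -0.01 over all probe sets, and 8 had means below 3.67 in both groups, a range in which signal and background are not distinguished. Gdf2, which encodes BMP9, a circulating ligand that stellate cells make for endothelium, ran from 2.78 to 3.53 with a median of 3.31 in NICD-OE-HEC, against 3.52 to 4.92 with a median of 4.16 in Control (difference -0.90, SE 0.22, limma adjusted p = 0.0152). Its groups touched, and its NICD-OE-HEC mean lay below 3.67, so the size is not exact. Bmp10, a second ligand of the same receptor, differed by -0.59 (limma adjusted p = 0.0399) below 3.67 in both groups, and its call was lost in 9 of 12 fits that left out 1 array. Lrat, the retinol esterifying enzyme that marks stellate cells, was lower on the same arrays (-0.75, SE 0.15, limma adjusted p = 0.00334), while Col1a1, Col1a2 and Col3a1 of the same marker list were higher. That list gave 3 higher and 1 lower of 12 (5 and 1 at an unadjusted p under 0.05), or 33.3% called against 10.5% of all probe sets. Its summed linear level was 758 to 1121 on NICD-OE-HEC arrays and 345 to 1043 on Control arrays, with no member listed at 0. The part of this list in these ligand differences was not tested.

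Of 12 receptors and co-receptors, 1 rose and 1 fell (2 and 2 at an unadjusted p under 0.05), with a median of 0.08. That is 16.7% called, against 10.5% of all probe sets in either direction. Neo1, neogenin, a receptor for hemojuvelin and other repulsive guidance molecules, was lower, from 4.02 to 4.50 in NICD-OE-HEC against 4.61 to 5.08 in Control (difference -0.64, SE 0.11, limma adjusted p = 9.45e-04). Acvrl1, the endothelial type I receptor ALK1 for BMP9 and BMP10, was higher by 0.30 (SE 0.08, limma adjusted p = 0.0246). The Acvrl1 call was lost without NICD-OE-HEC 1 or 2 or Control 3 or 4 (adjusted p up to 0.0625). The type II receptor Bmpr2 differed by 0.11 (SE 0.12, limma adjusted p = 0.711).

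Extracellular BMP antagonists and binding proteins other than Bmper gave 5 higher and 0 lower of 17 measured in limma (5 and 0 at an unadjusted p under 0.05), with a median of 0.14, and 9 of the 17 were below 3.67 in both groups. Over all probe sets 4.89% were higher, against 29.4% of these. Mgp, matrix Gla protein, which binds BMP2 and BMP4, ran from 8.25 to 9.57 with a median of 9.28 in NICD-OE-HEC, against 6.26 to 7.12 with a median of 6.50 in Control, 5.99-fold higher (difference 2.58, SE 0.20, limma adjusted p = 6.28e-07). Fstl1, a follistatin-like glycoprotein, was 3.09-fold higher (difference 1.63, SE 0.15, limma adjusted p = 2.70e-06). The groups did not overlap for either gene. Smaller rises were seen for Nbl1, a DAN family antagonist (0.63, SE 0.14), Twsg1, a BMP-binding partner of chordin (0.58, SE 0.12), and Crim1, a transmembrane BMP-binding protein (0.38, SE 0.10). On the same arrays the fibroblast markers Col1a1, Col3a1 and Col1a2 were higher by 2.49, 2.11 and 1.71. The 12 stellate cell and fibroblast markers gave these 3 higher and 1 lower, Lrat (-0.75). At an unadjusted p under 0.05 they gave 5 higher and 1 lower. Of 5 cholangiocyte markers 5 rose. The part of these cells in the differences of the binding proteins was not tested. The classical antagonist genes Nog and Chrd were below 3.67 in both groups and differed by -0.01 and -0.08.

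Of 8 SMADs and ubiquitin ligases, 1 rose and 0 fell in limma (1 and 0 at an unadjusted p under 0.05), with a median of 0.01, and this share of 12.5% is near the 10.5% of all probe sets called. The riser was Smad7, an inhibitory SMAD, which ran from 7.68 to 8.05 in NICD-OE-HEC against 7.32 to 7.68 in Control (difference 0.43, SE 0.10, limma adjusted p = 0.00767). Among 12 genes known as BMP-SMAD targets, 3 rose and 1 fell in limma (5 and 2 at an unadjusted p under 0.05). That is 33.3% called against 10.5% of all probe sets, with a median of 0.04, and Smad7 stands in this list too. Id4, a member of the inhibitor of DNA binding family, was 3.12-fold lower, from 4.99 to 5.82 in NICD-OE-HEC against 6.87 to 7.22 in Control (difference -1.64, SE 0.14, limma adjusted p = 1.93e-06). Its relative Id2 was higher by 0.49 (SE 0.10, limma adjusted p = 0.00423). Without a call, Id1 differed by 0.65 (SE 0.21, limma adjusted p = 0.0648) and Id3 by -0.37 (SE 0.15, limma adjusted p = 0.143). Tmem100, an endothelial gene induced through ALK1, was higher by 1.09 (SE 0.21), with both means below 3.67. Smad6, a feedback inhibitor induced by BMPs, differed by 0.10 (SE 0.11, limma adjusted p = 0.696). Early-response genes, several of which cell isolation can induce, were higher on the same arrays, with 8 of 10 called, or 80% against 10.5% of all probe sets. Their summed linear level was 4274 to 12140 on NICD-OE-HEC arrays against 1708 to 4856 on Control arrays. No early-response gene was listed at 0, and their part in these target gene differences was not tested.

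**Figure D2:**
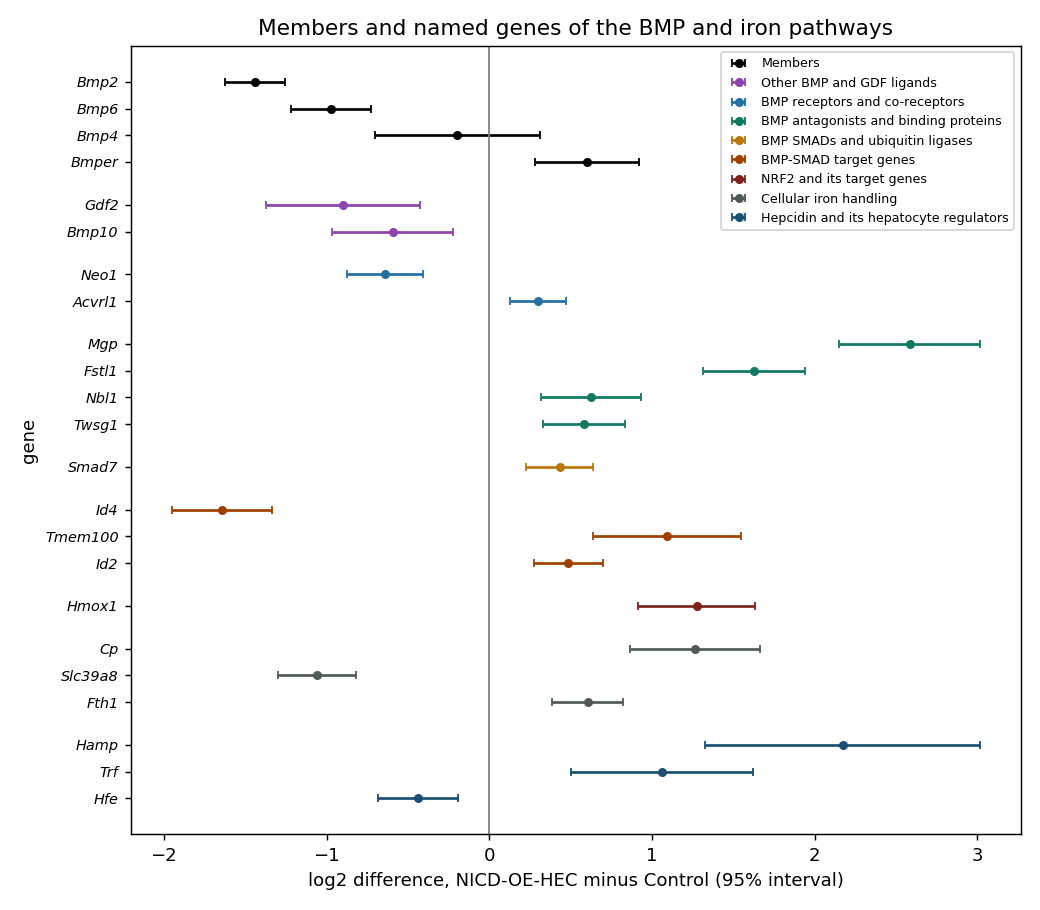
Log2 difference, NICD-OE-HEC minus Control, with limma's 95% interval, for the 4 genes (black) and for the named genes of 8 pathway lists, by colour; each gene is shown once, under the first list that holds it, and the vertical line marks 0. Bmp2 (-1.44) and Bmp6 (-0.97) lie left of 0, Bmper (0.60) and the BMP-binding proteins shown, led by Mgp (2.58), lie right of it, and the interval of Bmp4 spans it. Genes were shown because they were called, up to 4 per list by size. Of the 17 measured binding proteins other than Bmper, 12 had no call.

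Bmp6 in endothelium is known to respond to the oxidative stress factor NRF2 (gene Nfe2l2). Of 9 measured genes of NRF2 and its targets 1 rose and 0 fell in limma (1 and 1 at an unadjusted p under 0.05), with a median of -0.09, and this share of 11.1% is near the 10.5% of all probe sets called. Nfe2l2 differed by 0.12 (SE 0.10, limma adjusted p = 0.565) and the classical target Nqo1 by -0.43 (SE 0.23, limma adjusted p = 0.311). The riser was Hmox1, haem oxygenase, which releases iron from haem and is induced by other stresses as well (1.28, SE 0.17, limma adjusted p = 1.06e-04).

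Genes for iron handling within the cell gave 3 higher and 1 lower of 16, or 25% against 10.5% of all probe sets, with a median of 0.12. Besides Hmox1, the ferroxidase ceruloplasmin (Cp) was higher by 1.27 (SE 0.19, limma adjusted p = 2.91e-04), and Fth1, the ferritin heavy chain that stores iron, by 0.60 (SE 0.10, limma adjusted p = 0.00100). Cp is made in quantity by hepatocytes, and 4 of 7 hepatocyte markers rose on the same arrays, Alb by 1.13. Their part in the Cp difference was not tested. Fth1 ran from 11.66 to 12.02 in NICD-OE-HEC, against 11.02 to 11.46 in Control. Slc39a8, the metal importer ZIP8, was 2.08-fold lower, with values from 7.87 to 8.52 in NICD-OE-HEC against 9.02 to 9.26 in Control (difference -1.06, SE 0.11, limma adjusted p = 1.27e-05). The iron exporter gene Slc40a1 (ferroportin) differed by -0.02 (SE 0.21, limma adjusted p = 0.972). Tfrc and Ftl1 lay below 3.67 in both groups, where signal and background are not distinguished. Their values do not show whether either gene is expressed.

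Hepcidin transcript was higher in NICD-OE-HEC samples, in which its endothelial ligands were lower. Hamp, the hepcidin gene, is made by hepatocytes. It ran from 7.54 to 8.90 with a median of 8.15 in NICD-OE-HEC, against 4.82 to 6.96 with a median of 6.06 in Control. The groups did not overlap, and Control arrays were themselves divided, with Control 1, 2 and 4 from 6.88 to 6.96 and Control 3, 5 and 6 from 4.82 to 5.25. The difference was 2.17 (SE 0.40, 95% interval 1.33 to 3.02, limma adjusted p = 0.00176), or 4.51-fold higher. Of 7 measured genes of hepcidin and its regulators 2 rose and 1 fell, or 42.9% against 10.5% of all probe sets. Trf, transferrin, a serum iron carrier made by hepatocytes, was higher by 1.06 (SE 0.26, limma adjusted p = 0.0148). Hfe, the haemochromatosis protein that takes part in iron sensing, was lower (difference -0.44, SE 0.11, limma adjusted p = 0.0215), a call that was lost without NICD-OE-HEC 5 or Control 3 (adjusted p = 0.0513 and 0.0541). The gene of hemojuvelin, Hjv, differed by 0.08 (SE 0.15, limma adjusted p = 0.848).

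Several hepatocyte markers were also higher in NICD-OE-HEC. Of 7 hepatocyte markers 4 rose and 0 fell (6 and 0 at an unadjusted p under 0.05), or 57.1% called against 10.5% of all probe sets. None was listed at 0, and their summed linear level was 2041 to 5276 on NICD-OE-HEC arrays against 1003 to 2354 on Control arrays. Alb, albumin, was higher by 1.13 (SE 0.21, limma adjusted p = 0.00174). The part of hepatocyte RNA in the Hamp and Trf differences was not tested, so these values do not give the hepcidin level of the livers. Markers of further cell types are given with their counts, beside 4.89% of all probe sets higher and 5.59% lower. Of 7 neutrophil markers 6 rose, with sums of 505 to 2007 on NICD-OE-HEC arrays against 81.0 to 393 on Control arrays, and of 5 cholangiocyte markers 5 rose, with sums of 124 to 194 on NICD-OE-HEC arrays against 76.5 to 108 on Control arrays. Of 8 Kupffer cell markers 0 rose and 0 fell (2 and 0 at an unadjusted p under 0.05), with sums of 2462 to 6659 on NICD-OE-HEC arrays against 2231 to 5523 on Control arrays, and of 6 lymphocyte markers 0 rose and 0 fell (0 and 0 at an unadjusted p under 0.05), with sums of 64.4 to 140 on NICD-OE-HEC arrays against 87.2 to 109 on Control arrays.

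**Figure D3:**
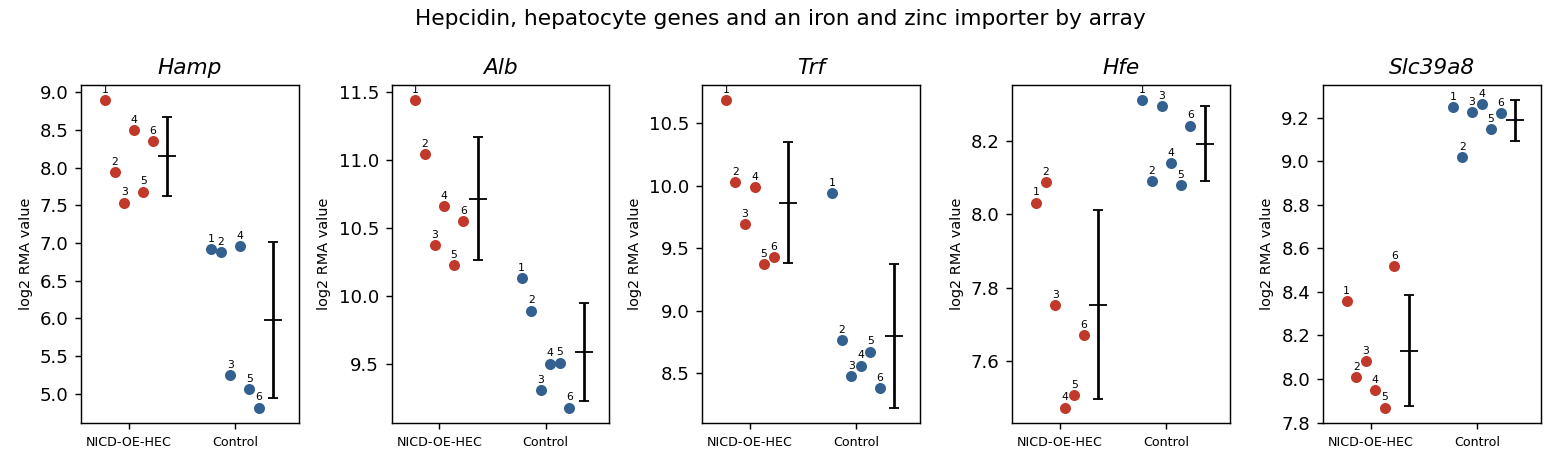
Log2 RMA values of Hamp, Alb, Trf, Hfe and Slc39a8 on each array, numbered by replicate, with NICD-OE-HEC in red on the left and Control in blue on the right; black bars give the mean ± SD of 6 arrays, and the vertical axes differ between panels. Hamp, Alb and Trf are higher in NICD-OE-HEC, with Control 1 high among Control arrays in Alb and Trf, and Slc39a8 is lower on every NICD-OE-HEC array.

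Genes with patterns most like the 4 genes were found by the root mean square difference over the 12 arrays, each gene taken relative to its own Control mean, among 11511 other named probe sets above 3.67 on average. This measure takes in the difference between the groups as well as the spread within them. Nearest to Bmp2 was Stab2, a scavenger receptor of sinusoidal endothelium, at 0.154 log2 units, followed by Gramd1c, a sterol transfer protein (0.178), Tcn2, the carrier of vitamin B12 into cells (0.180), Sgpp1, a phosphatase of sphingosine 1-phosphate (0.182), and Dmxl2, a regulator of the vesicular proton pump (0.192). These 5 genes differed by -1.45 to -1.24. Relative to their Control means, Bmp2 lay below Stab2 on NICD-OE-HEC 1, where the distance between them was widest.

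Closer still were the genes nearest to Bmp6, at 0.106 to 0.125 log2 units. They were P2rx7, an ion channel opened by extracellular ATP, Dpp7, a lysosomal dipeptidyl peptidase, Ttll7, a tubulin-modifying enzyme, Tgfbrap1, an adaptor first found on TGF-beta receptors, and Arhgap23. Their differences ran from -0.97 to -0.92, against -0.97 for Bmp6. Since these genes were chosen for their distance to Bmp6 array by array, an order of arrays that they share with it follows from the choice. By signed difference Bmp6 was number 215 from the bottom and Bmp2 number 65, so fewer probe sets lay as low as Bmp2. The part of this in the smaller distances to Bmp6 was not tested.

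For Bmper the nearest were Gdpd1, a lysophospholipase (0.162), Sfxn1, a mitochondrial serine carrier (0.173), Impdh1, an enzyme of guanine nucleotide synthesis (0.177), Ptger4, a prostaglandin E receptor (0.177), and Ldlrad3 (0.182), with differences of 0.55 to 0.72. Ldlrad3 lost its call without NICD-OE-HEC 2, 3 or 5 or Control 1. The genes nearest to Bmp4, at 0.203 to 0.240, were Tln2, Ift46, Tgfbi, Zkscan5 and Fam78a, which, like Bmp4, were not called, with differences of -0.26 to -0.14.

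**Figure D4:**
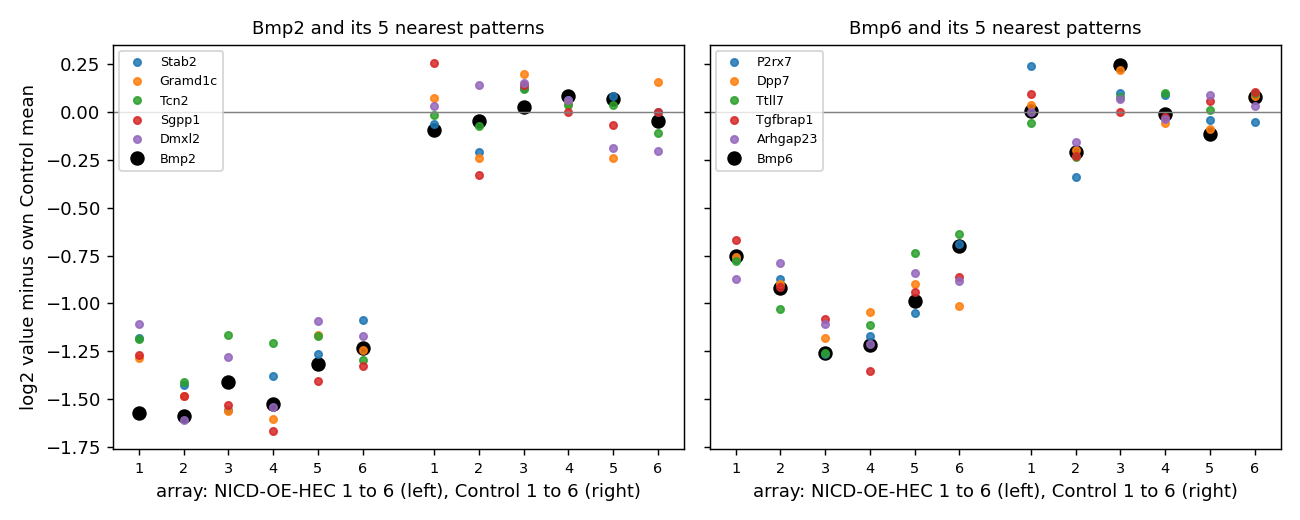
Log2 value minus the gene's own Control mean on each array, NICD-OE-HEC 1 to 6 on the left and Control 1 to 6 on the right of each panel, for Bmp2 (left panel, black) and Bmp6 (right panel, black) with the 5 genes nearest to each in colour. The genes of each panel share the drop in NICD-OE-HEC, which follows from how they were chosen. Those nearest to Bmp6 lie closer to it (0.106 to 0.125 log2 units) than those nearest to Bmp2 lie to Bmp2 (0.154 to 0.192).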

How the data were processed

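Per the submitters' processing notes, the deposited values are log2 expression values that the authors made with RMA, a method that corrects background, equalizes the arrays' quantiles and summarizes each probe set. The sources used here do not give the software, chip definition or build, and hold no detection calls. The arrays share their quantiles, so a change of most genes in one direction would not show. Of 25428 probe sets 24705 had 1 gene symbol, 0 several and 723 none (platform annotation of 2018).

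All probe sets were fitted in limma 3.58.1 (R 4.3.3; lmFit and eBayes, NICD-OE-HEC minus Control, no covariate, no filter). P-values are two-sided and adjusted by Benjamini-Hochberg over all probe sets, with calls at an adjusted p under 0.05. SE is limma's moderated error, or for pairs of genes that of 2 means. The 6 arrays per group limit the precision. The fit was tested on simulated data.

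Genes named are the 4 genes, up to 4 called genes per pathway list by size (or the 2 largest differences), and the 5 nearest patterns. Others were chosen after their values were seen. The members and lists were chosen with earlier results of these data known. Some listed genes are not reported here. The list of 8 symbols for hepcidin regulators holds Hjv under 2 names.

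The alternatives were median centring, quantile normalization once more, a filter on the dimmest 25 or 50 percent, eBayes with trend and robust settings, array weights, a block for replicate number, single arrays left out, and NICD-OE-HEC 4 and Control 2 left out together. A log2 difference of at least 1 was applied only to the counts over all probe sets.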

Additional observations from a re-analysis of the deposited data

Results flagged for a closer look

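Over 43 named genes in 2 groups, 86 sets of 6 arrays were searched for 1 array far from the others, and 5 were found, where chance gives about 1 in 20. Bmper on Control 2 was 3.94, the other Control arrays 4.61 to 4.89. Mgp on Control 2 was 7.12, above the other Control arrays at 6.26 to 6.56. Trf on Control 1 was 9.94, against 8.38 to 8.77 on the other Control arrays. Tln2 on NICD-OE-HEC 4 was 3.40, against 3.92 to 4.11 on the other NICD-OE-HEC arrays, and Tgfbi on Control 5 was 8.20, against 7.31 to 7.64 on the other Control arrays. The causes were not tested.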

How the results depend on the processing

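Bmp2, Bmp4, Bmp6 and Bmper kept their direction and their side of the threshold in all 20 alternatives run for them. The log2 difference of at least 1 was not among these. Of the called genes, Bmp6 (-0.97) and Bmper (0.60) do not reach it. With single arrays left out, Bmp2 ranged from -1.48 to -1.41, Bmp6 from -1.03 to -0.91, Bmp4 from -0.32 to -0.03 and Bmper from 0.47 to 0.67 (highest adjusted p of Bmper over all alternatives 0.0385). The 6 pair differences kept their calls in the 15 alternatives run for them. Of 39 other named genes 34 kept call and direction throughout. Bmp10, Acvrl1, Hfe and Ldlrad3 lost theirs as stated, and Ift46, not called, ranged from -0.2304 to 0.01102 with single arrays left out, above 0 only without NICD-OE-HEC 4.

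Same-numbered arrays of the groups had correlations of deviations from -0.10 to 0.22, and 2 of 6 NICD-OE-HEC arrays correlated best with their own number, so the numbers were not taken as pairs. With the replicate block 1294 probe sets were higher and 1213 lower, the differences of Bmp2 (-1.44) and Bmper (0.60) kept their calls (adjusted p = 1.30e-05 and 0.0246), and Acvrl1 (0.0511) and Ldlrad3 lost theirs, leaving 0 receptors higher.

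Over all probe sets 330 were higher and 201 lower at a log2 difference of at least 1, and with single arrays left out the counts ran from 1017 to 1323 higher and from 1090 to 1647 lower. Of the 16 list counts 12 stayed within 1.5 times throughout. Receptors higher numbered 2 without the dimmest 50 percent of probe sets, with array weights and without NICD-OE-HEC 4 and Control 2 together, and 0 to 2 with single arrays left out. Receptors lower numbered 2 without the dimmest 50 percent, with trend and robust eBayes and with array weights, and 1 to 2 with single arrays left out. Other ligands lower numbered 1 without the dimmest 50 percent, which drops dim ligands, and 1 to 3 with single arrays left out. Hepcidin regulators lower numbered 0 to 1 with single arrays left out. The causes were not tested. Levels below 3.67 cannot be separated from background, which limits Gdf2, Bmp10 and Tmem100.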
